A study of Mus musculus with 10 samples.

Results

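The genes described here encode basement membrane proteins, and they comprise 4 laminin chains (Lama1, Lama5, Lamb1 and Lamc1), the collagen IV chains Col4a1 and Col4a2, the linker Nid1 and the collagen-binding protein Sparc. They were taken by gene symbol, 8 of the 24411 genes listed in every library, and all 8 were found in all 10 libraries. Each library held polyadenylated RNA of 10 mouse morulae made by in vitro fertilization of superovulated oocytes, cultured in KSOM medium to 72 h after insemination and amplified as full-length cDNA with the SMART-Seq v4 PLUS kit. One-cell embryos had been injected 3 to 6 h after insemination with an antisense oligonucleotide (ASO), a short strand that pairs with a transcript and brings about its loss, which had either no target (ASO-Control, 5 libraries) or Mettl3 as its target (Mettl3-ASO, 5 libraries). Mettl3 encodes the catalytic subunit of the complex that writes N6-methyladenosine (m6A) into messenger RNA. All embryos were thus injected, and the labels name no uninjected group. Replicates 3 to 5 of both groups are labelled batch 2; replicates 1 and 2 carry no batch tag, are labelled ICR strain, and are called untagged below.

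A basement membrane is a thin sheet of matrix under epithelia. A laminin molecule is a trimer of an alpha, a beta and a gamma chain that polymerises at the cell surface, collagen IV is a trimer of 2 alpha1 chains and 1 alpha2 chain that forms a covalent network, and nidogen ties the sheets together. In the mouse embryo laminin beta1 and gamma1 chains are made during cleavage, before the alpha1 chain, and complete basement membranes appear at the blastocyst stage, where the primitive endoderm and its parietal derivative become strong sources of laminin 111, collagen IV and Sparc.

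Mettl3 itself was at 10.64, 12.68, 6.58, 7.77 and 6.62 FPKM (a read level scaled to transcript length and library size) in ASO-Control replicates 1 to 5 and at 0, 0, 0, 0.04 and 0.03 FPKM in Mettl3-ASO replicates 1 to 5. Expected counts, RSEM's estimates of reads per gene, summed to between 9905830 and 13530284 per untagged library and between 21412857 and 32327283 per batch 2 library, so the untagged libraries were shallower in both groups. Of 10 marker genes of the morula and its first lineages, 9 had a mean of at least 1 FPKM in both groups. Levels within that list had different, overlapping ranges in the groups: Krt18, a keratin of the outer cells, ranged from 87.7 to 476.7 FPKM in ASO-Control and from 9.71 to 111.3 FPKM in Mettl3-ASO libraries, Krt8 from 60.2 to 314.8 and from 13.3 to 137.0, Gata3 from 10.8 to 30.1 and from 1.52 to 15.8, and Cdx2 from 2.00 to 11.04 and from 0.99 to 8.08. The pluripotency factor Nanog ranged from 48.2 to 140.7 and from 136.1 to 454.1 FPKM. Pou5f1, also a pluripotency factor, went the other way, with means of 75.9 and 55.2 FPKM. Means of Sox2 (0.848 and 0.846) and Tfap2c (27.6 and 25.9) were close. Cdh1 had a lower mean in Mettl3-ASO (21.6 and 17.6) and Dppa3 a higher one (21960 and 35290). The part of these lineage markers in the differences below was not tested. Fibroblast markers, whose cells make collagen IV, summed to 0.25 to 0.9 FPKM in ASO-Control and 0.35 to 1.18 FPKM in Mettl3-ASO libraries, with Col3a1 at 0 in all 10. Markers of cumulus and granulosa cells, which surround the oocyte, summed to at most 0.06 and 0.6 FPKM, with Amh, Cyp19a1, Has2 and Inhba at 0 in all 10. The 4 oocyte markers summed to 2.4 to 4.72 FPKM in ASO-Control and to 7.82 to 19.18 FPKM in Mettl3-ASO libraries, which did not overlap; their part in the differences below was not tested. The 8 visceral and parietal endoderm markers summed to 1.99 to 9.39 and 4.28 to 8.43 FPKM, with Apoa1 the highest of them by mean, while Foxa2 and Sox17 were at or near 0. Afp (0 to 0.46 and 0.49 to 2.45 FPKM) and Gata4 (0.08 to 0.42 and 0.54 to 1.69) were higher in Mettl3-ASO without overlap. Apoa1, Sox7 and Thbd had lower means there, with overlap. The part of these markers in the differences below was not tested. The endothelial list summed to 1.66 to 3.4 and 1.74 to 4.19 FPKM, with Pecam1 the highest by mean.

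In bulk RNA, fewer cells making a transcript and less of it per cell cannot be told apart. Separate fertilizations are not named in the labels, and the p-values therefore describe variation among these 10 libraries, part of which may be technical. Differences are given as log2 fold changes of Mettl3-ASO over ASO-Control ± standard error from edgeR's quasi-likelihood test with batch as a term, and a gene was called at a Benjamini-Hochberg adjusted p under 0.05 over all genes tested. Of the 8 members, 6 had a mean of at least 1 FPKM and entered the test of 9522 genes. Col4a2 and Lama1 did not, and were tested in the same model over the 13268 genes kept by edgeR's own filter on counts, a choice made after their values were seen.

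The collagen IV chains parted. Col4a2 fell about 7-fold in Mettl3-ASO morulae with no overlap between the groups, while Col4a1, the gene next to it, was not called. The start regions of these neighbours are printed because they overlap head to head: GENCODE's annotation of GRCm38 (the mm10 build) places Col4a2 on the plus strand of chromosome 8 from 11312805 to 11449287 and Col4a1 on the minus strand from 11198423 to 11312826. Below is the plus strand at chr8:11312801-11312830 from the RefSeq promoter table for GRCm38.p6, 30 bases, with the 22 bases that lie in the first exon of both genes in capitals.
Col4a1/Col4a2 starts: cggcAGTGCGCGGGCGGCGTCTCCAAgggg
Apart from this stretch the genes are transcribed away from each other. Exon bases shared with a gene on the opposite strand made up 0.295% of Col4a1 and 0.982% of Col4a2, the latter shared with Col4a1 and Gm15419. No source used here states whether strand entered the counting.

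Col4a2, which encodes the alpha2 chain, was at 1.21, 0.54, 0.83, 0.89 and 0.45 FPKM in ASO-Control replicates 1 to 5 and at 0.25, 0.02, 0.10, 0.15 and 0.05 FPKM in Mettl3-ASO replicates 1 to 5. Every Mettl3-ASO library lay below every ASO-Control library. The corresponding expected counts were 96, 40, 146, 177 and 91 against 21, 1, 17, 25 and 6, so the lowest value rests on 1 read. Means were 0.784 ± 0.303 and 0.114 ± 0.0907 FPKM (SD, n = 5). Its log2 fold change was −2.87 ± 0.50 (edgeR adjusted p = 0.000507), with a 95% interval from −3.94 to −1.80. Summed over libraries, 550 counts in ASO-Control stood against 70 in Mettl3-ASO, 6.61-fold lower relative to the library totals, with a 95% interval for counting error alone from 5.15 to 8.60. The difference was of like size in each set of libraries, −2.93 in batch 2 (adjusted p = 0.00175) and −2.80 in the untagged libraries (adjusted p = 0.128, with 2 libraries a group).

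Col4a1, which encodes the alpha1 chain, was at 2.28, 1.68, 1.89, 1.78 and 1.14 FPKM in ASO-Control replicates 1 to 5 and at 2.58, 0.49, 1.25, 1.88 and 0.96 FPKM in Mettl3-ASO replicates 1 to 5. The groups overlapped, and Mettl3-ASO replicate 1 was the highest of all 10 libraries. The log2 fold change was −0.35 ± 0.33 (edgeR adjusted p = 0.402), with a 95% interval from −1.08 to 0.37. That interval ends short of the one for Col4a2, although the 2 fits used different filters. Under the filter on counts Col4a1 had −0.39 ± 0.33 (adjusted p = 0.360).

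Because both values of a ratio come from the same library, the ratio of Col4a1 to Col4a2 does not depend on how libraries are scaled. In TPM (a level per length, scaled to a common sum per library) it was 1.87, 3.08, 2.28, 1.99 and 2.53 in ASO-Control replicates 1 to 5, around the 2 to 1 of the protein trimer. In Mettl3-ASO replicates 1 to 5 it was 10.3, 27.5, 12.3, 12.0 and 19.2. The groups did not overlap: the geometric means were 2.31 and 15.2, a 6.56-fold difference. A two-sided exact permutation test of the log2 ratio that relabelled libraries within batches gave p = 0.0167, the smallest value that its 120 relabellings allow. After Benjamini-Hochberg adjustment over 3 chain ratios it was 0.05, which is not under the threshold of 0.05 used for calls. With libraries paired by replicate number, the exact sign-flip test of 5 pairs gave p = 0.0625, also the smallest it allows, with the ratio higher in all 5 Mettl3-ASO libraries. Deposited TPM values have 2 decimals, so the ratio of 27.5 in Mettl3-ASO replicate 2 rests on a Col4a2 value of 0.02; without that library the log2 difference was 2.50 in place of 2.71.

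**Figure D1:**
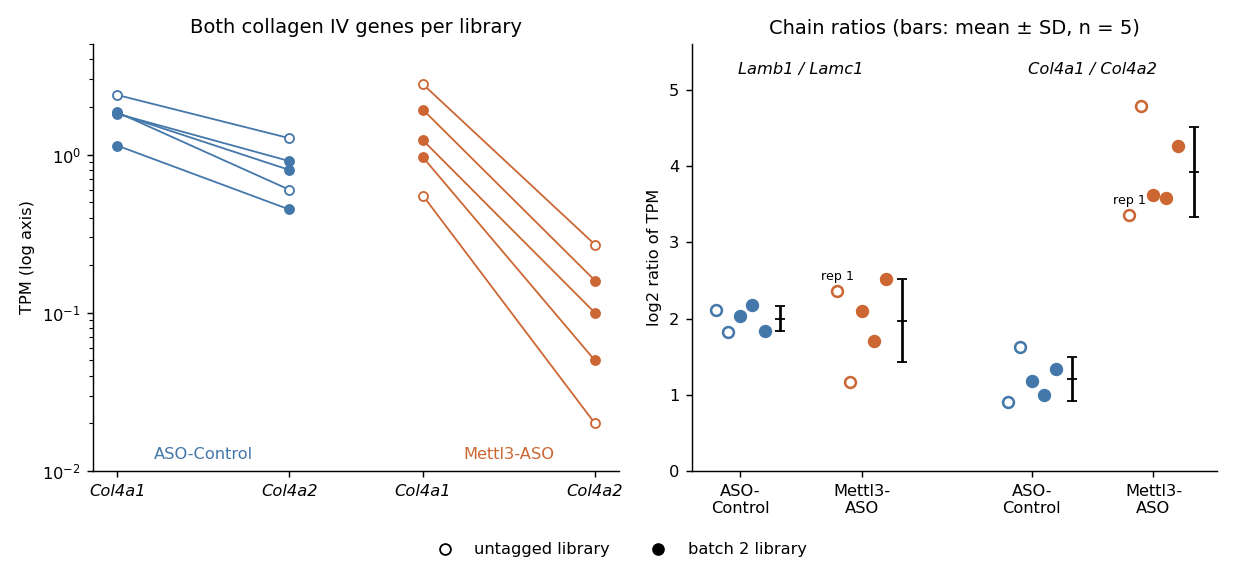
Left, TPM of Col4a1 and Col4a2 on a log axis, with a line for each library; right, log2 ratios of TPM for Lamb1 to Lamc1 and Col4a1 to Col4a2, with open points for untagged and filled points for batch 2 libraries, and mean ± SD bars (n = 5). The Col4a1 to Col4a2 ratios of the groups do not overlap (at most 3.08 in ASO-Control, at least 10.3 in Mettl3-ASO), whereas the Lamb1 to Lamc1 ratios do.

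The laminin beta1 and gamma1 chains, which are shared by the laminins of the early embryo, both fell, about 2-fold. Of the 6 members tested in the first fit, these 2 fell and none rose; over all genes of that fit 24.0% were called lower, 25.4% higher and 49.4% in either direction. The median log2 fold change was −0.49 for the 6 members and 0.01 for all genes tested. Under the filter on counts, 4 of 8 members fell (Lama1, Lamb1, Lamc1 and Col4a2), where 19.7% of all genes were called lower, 22.1% higher and 41.8% in either direction. Lama1 and Col4a2 passed their filter through the group where they were high, so this count is a description only. There the median was −0.82 for the members and 0.06 for all genes. In the FPKM values, 2 of 8 members (Lama1 and Col4a2) had no overlap between the groups, both lower, against 8.31% of all genes kept by that filter. These are the same 2 genes, so this count too is a description only. For Lama1 the lowest ASO-Control library held 3 counts and the highest Mettl3-ASO library 2.

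Lamb1 lies on chromosome 12 from 31265234 to 31329644, plus strand. It was at 12.95, 7.57, 9.82, 7.21 and 6.22 FPKM in ASO-Control replicates 1 to 5 and at 12.38, 1.86, 4.71, 3.17 and 3.16 FPKM in Mettl3-ASO replicates 1 to 5. Of the latter group 4 libraries lay below every control and replicate 1 lay just under the highest control. The log2 fold change was −0.93 ± 0.36 (edgeR adjusted p = 0.0462). That call was lost without any of 7 libraries (ASO-Control replicates 1, 3, 4 and 5 and Mettl3-ASO replicates 3, 4 and 5, adjusted p up to 0.109) and with limma (adjusted p = 0.0548), upper-quartile scaling (0.0705) or no batch term (0.0619). The direction was the same in all 22 alternatives tried, and without Mettl3-ASO replicate 1 the value was −1.45.

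Lamc1 lies on chromosome 1 from 153218922 to 153332786, minus strand. It was at 3.01, 2.15, 2.38, 1.59 and 1.75 FPKM in ASO-Control replicates 1 to 5 and at 2.40, 0.83, 1.10, 0.97 and 0.55 FPKM in Mettl3-ASO replicates 1 to 5. Again 4 Mettl3-ASO libraries lay below every control and replicate 1 lay among the controls. The log2 fold change was −1.01 ± 0.28 (edgeR adjusted p = 0.00928; 95% interval −1.61 to −0.41), and leaving out any 1 library kept the adjusted p at or under 0.0276.

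The ratio of Lamb1 to Lamc1 did not part the groups. In TPM it ran from 3.53 to 4.54 in ASO-Control and from 2.25 to 5.75 in Mettl3-ASO libraries, with geometric means of 3.99 and 3.92. The difference of the log2 ratio was −0.02 (two-sided exact permutation within batches, p = 0.95, adjusted over 3 ratios 0.95). The transcript of the beta1 chain was thus about 4 times as abundant per length as that of the gamma1 chain in both groups, with a wider spread in the Mettl3-ASO group (SD of the log2 ratio 0.54 against 0.16, n = 5).

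The alpha chains are considered next. Lama5 (chromosome 2, 180176373 to 180225859, minus strand), whose product can take the place of the alpha1 chain beside beta1 and gamma1, was at 2.50, 1.54, 1.52, 0.84 and 1.15 FPKM in ASO-Control replicates 1 to 5 and at 2.25, 1.46, 1.09, 0.89 and 0.70 FPKM in Mettl3-ASO replicates 1 to 5. The groups overlapped nearly fully, and the log2 fold change was −0.33 ± 0.22 (edgeR adjusted p = 0.234; 95% interval −0.81 to 0.15).

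Lama1 (chromosome 17, 67697259 to 67822647, plus strand), the alpha chain of laminin 111, was near the limit of detection. Its expected counts were 3, 9, 14, 14 and 13 in ASO-Control replicates 1 to 5, at most 0.08 FPKM, and 2, 2, 0, 0 and 0 in Mettl3-ASO replicates 1 to 5. A count of 0 allows up to 3 counts, or 0.108 to 0.140 CPM (counts relative to the library total) in those 3 libraries. In batch 2, 41 counts stood against 0, at least 11.1-fold lower in Mettl3-ASO, taking 3 counts for its summed 0. In the untagged libraries 12 stood against 4, 2.86-fold lower with a 95% counting interval from 0.868 to 12.2. The edgeR test over all libraries called it (adjusted p = 0.0140). Lama1 entered that fit through its ASO-Control level, so the call is a description only. With limma on log2(FPKM + 1) it was not called (adjusted p = 0.375). There the added 1 exceeds every Lama1 value and shrinks the log2 difference to −0.059, so that result cannot decide the question. The ratio of Lama1 to Lama5 needed a pseudocount of 0.1 TPM, above every Lama1 value, and its log2 difference of −0.27 (two-sided exact permutation within batches, p = 0.367, adjusted over 3 ratios 0.55) mostly shows that pseudocount. In CPM the difference was −1.59 (exact permutation p = 0.0333, not adjusted). This value also depends on an added constant, 0.1 CPM, because Lama1 had counts of 0.

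**Figure D2:**
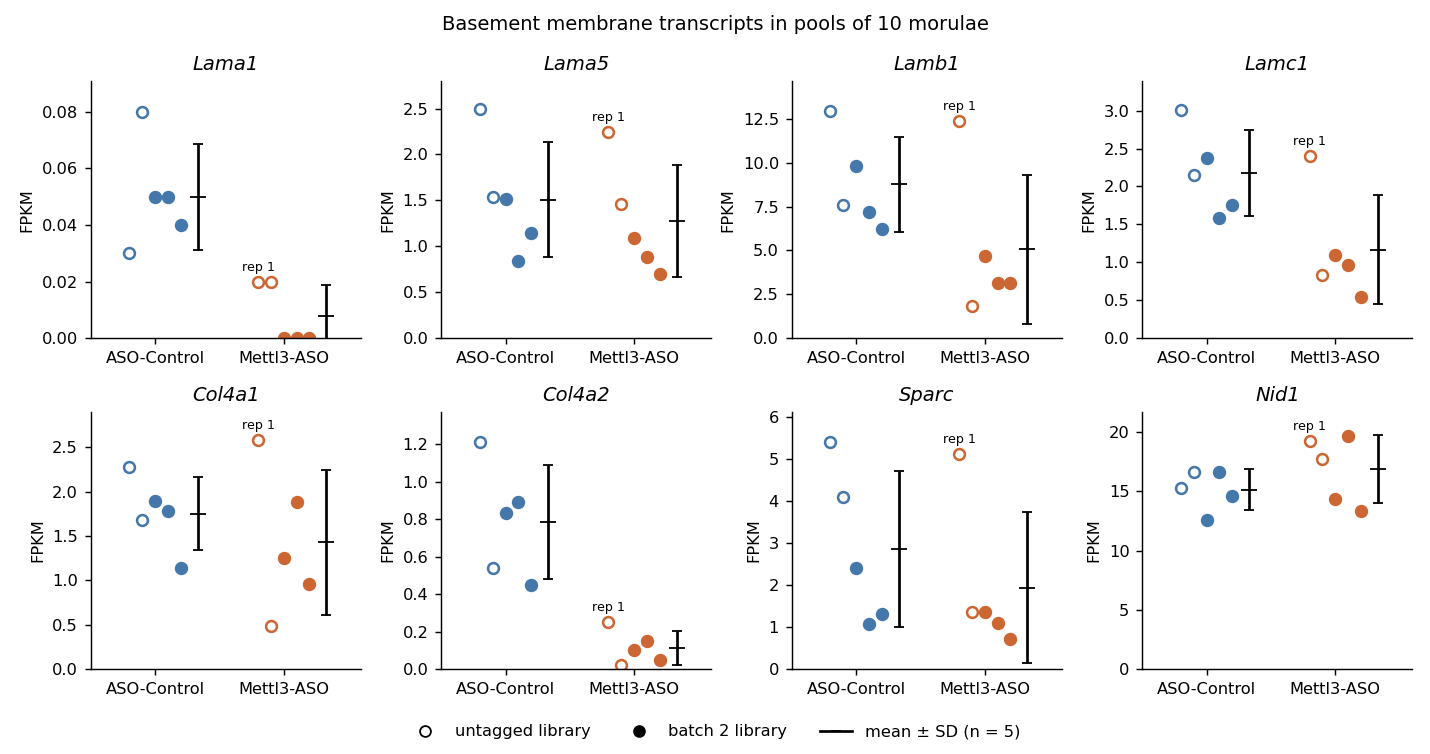
FPKM of the 8 genes in each library, with open points for untagged libraries, filled points for batch 2 and bars for mean ± SD (n = 5); each panel has its own axis from 0. Groups do not overlap for Lama1 and Col4a2, and Mettl3-ASO replicate 1 (rep 1) lies among or above the controls for Lama5, Lamb1, Lamc1, Col4a1, Sparc and Nid1.

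Sparc encodes a secreted protein that binds collagen IV. It lies on chromosome 11 from 55394500 to 55423183, minus strand, and was at 5.41, 4.10, 2.41, 1.07 and 1.32 FPKM in ASO-Control replicates 1 to 5 and at 5.12, 1.37, 1.37, 1.11 and 0.73 FPKM in Mettl3-ASO replicates 1 to 5. The untagged libraries were high in both groups, except Mettl3-ASO replicate 2. The log2 fold change was −0.63 ± 0.34 (edgeR adjusted p = 0.144; 95% interval −1.37 to 0.11); without Mettl3-ASO replicate 1 it was −0.92 (adjusted p = 0.0477). Sparc was the member most tied to batch: at equal group it was 2.46-fold higher in the untagged libraries (edgeR adjusted p for the batch term 0.0246), a term for which 15.7% of all genes were called. No other member was called for it, Lama5 being nearest (adjusted p = 0.0695).

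Nid1 encodes nidogen-1, which links laminin gamma1 to collagen IV, and lies on chromosome 13 from 13437551 to 13512269, plus strand. It was the most abundant member, at 15.28, 16.67, 12.56, 16.62 and 14.60 FPKM in ASO-Control replicates 1 to 5 and at 19.23, 17.69, 14.38, 19.70 and 13.37 FPKM in Mettl3-ASO replicates 1 to 5. The groups overlapped, and 3 Mettl3-ASO libraries lay above the highest control. Its log2 fold change was 0.11 ± 0.13 (edgeR adjusted p = 0.527), and the 95% interval from −0.18 to 0.39 excludes a fall as large as the estimate for Lamb1 or Lamc1. It was the sole member with a positive value, and it was positive in all 22 alternatives.

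**Figure D3:**
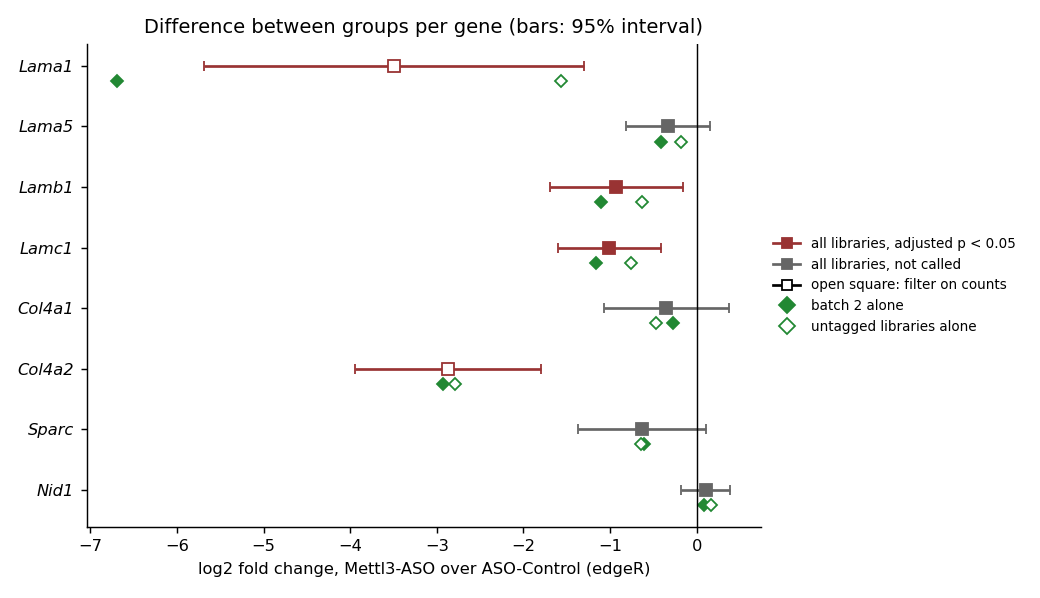
Log2 fold change of Mettl3-ASO over ASO-Control for each gene from edgeR, with 95% interval; red marks adjusted p under 0.05, open squares the filter on counts, and diamonds the value in batch 2 (filled) or the untagged libraries (open) alone. Col4a2 has nearly the same value in both sets of libraries (−2.93 and −2.80), Lama1 does not (−6.69 and −1.57, from very few counts), and Nid1 alone lies right of 0.

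The difference between groups did not pass a test of change with batch for any member. The edgeR interaction of group and batch called 0 of 9522 genes (0.0%) and 0 of the 8 members over both filters. In the first fit 159 of the 9522 genes and 0 members were under an unadjusted p of 0.05. With the filter on counts 275 of 13268 genes were, among them 1 member (Lama1). The limma interaction also called 0 members. Within batch 2 alone, Lamb1 had −1.11 ± 0.24 (edgeR adjusted p = 0.00573) and Lamc1 −1.16 ± 0.31 (adjusted p = 0.0139), in a fit that called 39.0% of genes. In the untagged libraries alone, where 6.26% of genes were called, edgeR called 0 of 8 members, with 1 of them, Col4a2, under an unadjusted p of 0.05. There Lamb1 had −0.64 and Lamc1 −0.75.

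Mettl3-ASO replicate 1 was the highest library of its group in Lama5, Lamb1, Lamc1, Col4a1, Col4a2 and Sparc. It had 12.38 FPKM of Lamb1 where the other 4 libraries had 1.86 to 4.71, 2.40 of Lamc1 against 0.55 to 1.10, and 5.12 of Sparc against 0.73 to 1.37. In Col4a2 it was at 0.25 FPKM, below the lowest control of 0.45. Mettl3 was at 0 in it. Without this library, 3 of 6 members were called in the first fit (Lamb1, Lamc1 and Sparc), in a fit that called 4800 of 9522 genes, and Col4a2 had a log2 fold change of −3.31.

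By level per length, the order of means in ASO-Control was Nid1 (15.2 FPKM), Lamb1 (8.75), Sparc (2.86), Lamc1 (2.18), Col4a1 (1.75), Lama5 (1.51), Col4a2 (0.784) and Lama1 (0.05). Neighbours in this order overlapped between libraries except Lamb1 with Sparc and Col4a2 with Lama1. In Mettl3-ASO the order was Nid1 (16.9 FPKM), Lamb1 (5.06), Sparc (1.94), Col4a1 (1.43), Lama5 (1.28), Lamc1 (1.17), Col4a2 (0.114) and Lama1 (0.008). Here Nid1 no longer overlapped Lamb1, and Col4a2 no longer overlapped the gene above it. All 10 libraries had more Nid1 than Lamb1. The mean of Nid1 lay above 85.1% of all listed genes in ASO-Control and 85.2% in Mettl3-ASO, whereas Col4a2 passed from above 60.8% to above 42.8%.

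The upstream sequences of Lamb1 and Nid1 are printed because these are the most abundant members, of which the former fell and the latter did not. Both are from RefSeq's promoter table for GRCm38.p6, plus strand, and stop at the last base before the annotated start: Lamb1 at chr12:31265043-31265233 and Nid1 at chr13:13437352-13437550. Capitals mark GGGCGG (a GC box), CCAAT and CCCTCC on either strand, which run into each other at the end of the Lamb1 stretch.
Lamb1 upstream: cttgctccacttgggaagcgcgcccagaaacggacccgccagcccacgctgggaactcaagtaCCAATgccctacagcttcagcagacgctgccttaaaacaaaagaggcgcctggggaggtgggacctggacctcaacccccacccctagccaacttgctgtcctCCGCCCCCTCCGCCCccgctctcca
Nid1 upstream: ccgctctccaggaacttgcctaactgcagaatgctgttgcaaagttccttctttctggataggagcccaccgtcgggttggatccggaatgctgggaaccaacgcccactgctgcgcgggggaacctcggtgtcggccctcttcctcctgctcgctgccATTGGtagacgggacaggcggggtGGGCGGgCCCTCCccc
The table matched 6 of the 8 members. In the 250 bases before the start, GGGCGG was present in Lama5, Lamb1, Col4a2 and Nid1, CCAAT in Lamb1, Col4a1, Col4a2 and Nid1, and CCCTCC in Lama5, Lamb1, Col4a2 and Nid1. Over all 32851 promoters in the table, 32.7%, 33.9% and 35.2% held these motifs. TATAAA (12.4% of promoters), GATAA (22.6%) and CACGTG (6.02%) were in none of the 6 windows. Sparc held none of the 6 motifs. The match is to letters only, and Lamb1 and Nid1 held the same 3 motifs.

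The m6A writer acts on adenosine in short consensus contexts of which GGACT is a common form, so this word was counted in 1 annotated transcript per gene. Col4a1 had 2.72 per kb, more than 95.6% of the 9400 tested genes with a matched transcript, and Col4a2 2.17 per kb, more than 89.9%. Lama1 followed with 1.89, Lama5 with 1.23, Lamb1 with 1.21, Nid1 with 1.15, Lamc1 with 0.656 and Sparc with 0.435 per kb, around a median of 1.02. No methylation was measured here, and the relation of this count to the changes was not tested.

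The likeness of profiles over libraries is given as a description. By root-mean-square difference of log2(FPKM + 1) centred per gene over the 10 libraries, the nearest other member ranked 58th among 9521 genes for Lamb1 (Lamc1), 379th for Sparc (Lamc1), 468th for Col4a1 (Lamc1), 548th for Lamc1 (Lama5), 859th for Lama5 (Lamc1) and 3249th for Nid1 (Lama5). The genes nearest to Lamb1 were Ap2a2 (0.237) and Cpt1a (0.249), and those nearest to Lamc1 were Eef1a1 (0.103) and Rpl8 (0.112). Lama5 was nearest to Aldh2 and Usp3, Col4a1 to S100a11 and Pcsk1n, Sparc to Pvrl2 and Foxh1, and Nid1 to Hnrnpf and Uhmk1.

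Other chains of these families were scarce. Lama3, the alpha chain of the laminin found at hemidesmosomes, was at 0.40, 0.14, 0.15, 0.37 and 0.12 FPKM in ASO-Control replicates 1 to 5 and at 1.69, 0.45, 0.57, 0.56 and 0.17 FPKM in Mettl3-ASO replicates 1 to 5. It rose 2.46-fold (log2 standard error 0.48; edgeR under the filter on counts, adjusted p = 0.0420), opposite to Lamb1 and Lamc1; the groups overlapped, and the call was lost on leaving out any of 7 libraries (replicates 1, 2, 3 and 5 of ASO-Control and 1, 3 and 4 of Mettl3-ASO, adjusted p up to 0.136), in batch 2 alone (0.221) and with limma (0.0848). Lamb2, a beta chain, had 0.66 ± 0.41 (adjusted p = 0.215), Lama4 −0.23 ± 0.48 (0.736) and Nid2, the second nidogen, −0.43 ± 0.59 (0.592). Lamb3, the beta chain that joins Lama3, had 1 count over the ASO-Control and 2 over the Mettl3-ASO libraries. Lama2, Lamc3, Col4a3, Col4a4 and Col4a5 were at or under 0.09 FPKM in every library, and Col4a6 was at 0 in all 10.

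Of the list of 27 other basement membrane genes, 2 passed the filter on FPKM and both fell, where 24.0% of all genes did. Smoc1 passed it through its ASO-Control level, so this count supports nothing about the list. Smoc1, a matricellular relative of Sparc, fell by 1.73 ± 0.32 (edgeR adjusted p = 0.000786), from 1.62 ± 0.359 to 0.498 ± 0.236 FPKM (SD, n = 5), without overlap between the groups. Tinagl1, a laminin-binding matrix protein, fell by 1.21 ± 0.30 (adjusted p = 0.00544), from 6.07 ± 4.57 to 2.40 ± 1.71 FPKM; its groups overlapped and batch 2 alone did not call it (adjusted p = 0.105).

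Of 24 genes for matrix receptors and their adaptors, 15 were tested, of which 7 fell, 2 rose and 6 were not called (median −0.40), against 49.4% of all genes called. Itgb1, the beta chain of most laminin and collagen receptors, fell by 1.25 ± 0.15 (edgeR adjusted p = 3.29e-05), from 17.1 ± 5.02 to 7.55 ± 3.12 FPKM (SD, n = 5), with no overlap. Vcl, the adhesion adaptor vinculin, fell by 1.45 ± 0.20 (adjusted p = 0.000105), and Sdc4, the heparan sulfate proteoglycan syndecan-4, by 1.28 ± 0.19 (adjusted p = 0.000157). Their groups were from 3.80 to 8.29 against 1.55 to 3.27 FPKM and from 27.0 to 65.7 against 10.5 to 34.4 FPKM. The laminin receptor alpha chain Itga6 fell 2-fold (adjusted p = 0.00882; 0.133 in batch 2 alone), whereas Itgav, the alpha chain of receptors for vitronectin and fibronectin, rose by 0.94 (adjusted p = 0.00700).

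Collagen IV must be hydroxylated, folded and packed into large transport carriers before it is secreted. Of 25 genes listed for these steps 24 were measured and 19 tested, of which 7 fell, 3 rose and 9 were not called (median −0.33), near the 49.4% called over all genes. Sar1a, the GTPase that starts the COPII coat, rose by 1.42 ± 0.12 (edgeR adjusted p = 2.87e-06), from 89.2 ± 16.8 to 243.5 ± 16.5 FPKM (SD, n = 5). Crtap, a partner of collagen prolyl 3-hydroxylase, rose by 1.03 ± 0.15 (adjusted p = 0.000129), and Ctage5, which acts in collagen export, fell by 1.18 ± 0.17 (adjusted p = 0.000118). The groups did not overlap for any of these 3 genes, which were picked for the smallest p of the list, so this is a description only.

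Of 16 genes for matrix proteases and inhibitors, 5 were tested, of which 2 fell and 3 were not called (median −0.03), against 49.4% called over all genes. Bsg, the inducer of matrix metalloproteinases basigin, fell by 1.03 ± 0.17 (edgeR adjusted p = 0.000377), from 564.8 ± 143 to 287.3 ± 82.7 FPKM (SD, n = 5). Serpine2, an inhibitor of serine proteases, fell by 1.78 ± 0.44 (adjusted p = 0.00474), from 55.1 ± 26.6 to 16.6 ± 8.36 FPKM. Adam17, a sheddase, had 0.36 (edgeR adjusted p = 0.0519). The adjusted p was under 0.05 without Mettl3-ASO replicate 1 (0.00937), with limma (0.0298), with DESeq2 (0.0442) and with upper-quartile scaling (0.0244). It stayed above 0.05 with no batch term (0.0732), replicate number as a block (0.0604) or the filter on counts (0.0939). The same held in batch 2 alone (0.0648) and without any other 1 library (up to 0.149).

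Of 15 genes of the primitive and parietal endoderm, the lineages that later make much of the laminin 111 and collagen IV, 4 were tested, of which 2 fell and 2 were not called (median −1.16), near the 49.4% called over all genes. Both that fell are endocytic: Lrp2, the receptor megalin, fell by 3.34 (edgeR adjusted p = 0.000208), from 21.6 ± 3.57 to 2.73 ± 3.50 FPKM (SD, n = 5), and the clathrin adaptor Dab2 also fell. Both are also made outside the endoderm in the preimplantation embryo. Mettl3-ASO replicate 1 held 8.95 FPKM of Lrp2, against 0.58 to 1.51 in Mettl3-ASO replicates 2 to 5. Fgfr2, an FGF receptor, had −0.18 (adjusted p = 0.353), and the endoderm transcription factor Gata6 had 0.14 (adjusted p = 0.496).

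**Figure D4:**
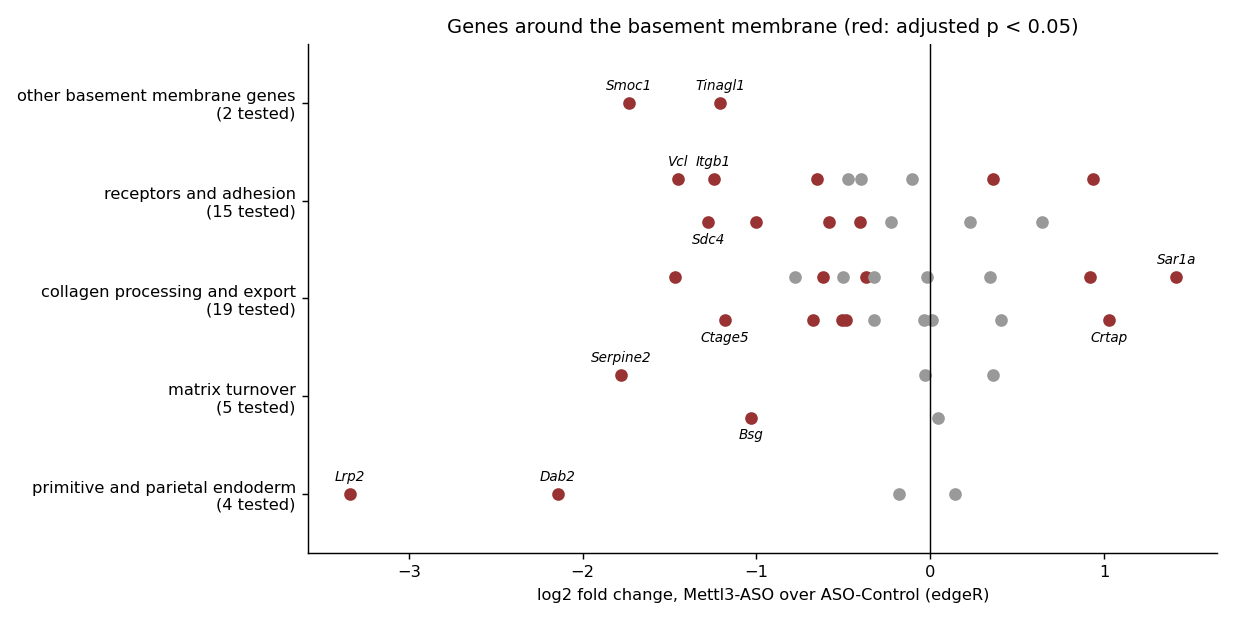
Log2 fold change of Mettl3-ASO over ASO-Control (edgeR) for each tested gene of the 5 lists, in red where the adjusted p is under 0.05 and grey otherwise; the genes with the smallest p of each list are named where called, and points are offset vertically for legibility. Receptor and collagen processing genes moved both ways (7 fell and 2 rose, 7 fell and 3 rose).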

How the data were processed

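Each library has a deposited gene table in RSEM's format. STAR 2.7.10, RSEM 1.3.3 and build mm10 are named per the submitters' processing notes; options, strand and annotation release are not given in the sources used here. Per the file headers, the authors deposited expected counts, TPM, FPKM and transcript lengths. Members and lists were chosen with earlier results of these data known. Expected counts were rounded and tested with edgeR 4.0.16 (TMM, batch and group, mean FPKM of at least 1; for Col4a2 and Lama1 filterByExpr); DESeq2 1.42.0 and limma 3.58.1 on log2(FPKM + 1) were alternatives. Fold changes from edgeR are relative to library totals scaled by TMM, and those of summed counts to the unscaled totals. Tested on simulated counts of the 9522 genes for the comparison of Mettl3-ASO with ASO-Control, edgeR recovered 61% of 2-fold and 93% of 4-fold changes and called 0.0536% of unchanged genes. That simulation changed 100 genes at each fold and held no batch difference. In the data 4704 genes were called, so these rates need not hold for them. Library pairs within a group and batch differed by a chi-square per degree of freedom of at least 19.8. Same-numbered libraries of the groups deviated together (correlations over genes 0.19 to 0.31, the untagged pairs sharing 1 value), so the numbers were taken as pairs, from the data and not from the labels. Intervals for summed counts and the floor of 3 counts cover counting error only. Named genes were the members, Mettl3, the 3 tested genes of each list with the smallest p, the laminin, collagen IV and nidogen families (1 gene is not reported here), and the 2 nearest profiles per tested member; Itga6, Itgav and Gata6 were named after their values were seen.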

Additional observations from a re-analysis of the deposited data

Results flagged for a closer look

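Lamb1 in Mettl3-ASO replicate 1 was 12.38 FPKM, against 1.86 to 4.71 in Mettl3-ASO replicates 2 to 5, a gap of 0.729 of the group's range (Dixon's critical value for 5 is 0.71). Sparc in the same library was 5.12 FPKM, against 0.73 to 1.37, a gap of 0.854 of the range. Such a gap was looked for in 24 groups, and chance gives about 1 in 20 groups. The library was also the highest of its group in Lamc1, Col4a1, Col4a2 and Lama5, with smaller gaps. It had 0 counts of Mettl3.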

How the results depend on the processing

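Each member's log2 fold change had the same sign in every alternative tried (20 to 22 per gene). Lamc1 lost its call in 1 of 21 and Col4a2 in 1 of 20, the untagged libraries alone in both cases; Lamb1 lost it in 14 of 22 and Lama1 in 4 of 20. Members called in the first fit numbered 2, against 1 with upper-quartile scaling, limma at a pseudocount of 1, 0.1 or 5, or no batch term, 0 at a mean FPKM of at least 5 or in the untagged libraries alone, 4 with no filter or the filter on counts (added after seeing the data), and 1 to 3 without 1 library. All genes called numbered 4704, against 596 in the untagged libraries alone and 4194 to 4800 without 1 library. Upper-quartile scaling moved the median log2 fold change of all genes from 0.01 to 0.07. The log2 difference in Col4a1 to Col4a2 was 2.65 (p = 0.1) in batch 2 and 2.81 (p = 0.333) in the untagged libraries, exact permutation tests at the smallest p either allows, and 2.50 to 2.85 without 1 library. That in Lamb1 to Lamc1 was 0.091 in batch 2 and −0.16 to 0.18 without 1 library. That in Lama1 to Lama5 was −1.59 in CPM with 0.1 CPM added (exact permutation p = 0.0333). It was 0.048 at a pseudocount of 0.5 TPM and −0.52 to −0.07 without 1 library. Of the lists, other basement membrane genes had 2 called, against 0 at a mean FPKM of at least 5, where neither was tested, 1 in batch 2 and 0 where untagged libraries stood alone; these called 1 each of the receptors, collagen processing, matrix turnover and endoderm genes. Without 1 library those lists had 7 to 9, 9 to 11, 2 to 3 and 2 called, and other basement membrane genes 2. The cause of these changes was not tested, apart from fewer libraries or genes where these were left out.

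With replicate number as a block (pairing), 2 members and 5246 genes were called, Lamb1 at an adjusted p of 0.00146, and the paired test of Col4a1 to Col4a2 gave 2.71 (exact sign-flip p = 0.0625); the block changed no other member's call in the fit it was reported from. Depth limits Lama1 most (at most 14 counts a library), then Col4a2.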

Other observations

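The filter on counts also admitted low genes of the lists, named here after their values were seen. Of 14 other basement membrane genes it kept, 3 fell, 3 rose and 8 were not called, near the 41.8% called over all genes it kept. Agrn, the heparan sulfate proteoglycan agrin, fell by 1.29 (edgeR adjusted p = 0.00259), from 0.782 ± 0.285 to 0.340 ± 0.186 FPKM (SD, n = 5). Frem2, of a complex that anchors epithelia to the matrix, rose by 2.23 (adjusted p = 0.000379), from 0.074 ± 0.0241 to 0.374 ± 0.116 FPKM, with no overlap. Pxdn, the peroxidase that cross-links collagen IV, had 6 counts over the ASO-Control and 46 over the Mettl3-ASO libraries. It passed the filter through its Mettl3-ASO level. Its call (edgeR adjusted p = 0.0225) and its place among the 3 that rose are therefore a description only. The call was lost with the replicate block (0.0591) and under limma (0.170), where the added 1 FPKM exceeds every Pxdn value. The integrin chains moved both ways: Itgb4, which pairs with Itga6 at hemidesmosomes, rose by 1.42 (adjusted p = 0.000430), opposite to Itgb1 and Itga6.

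Of 10 endoderm genes kept by the same filter, 3 fell, 2 rose and 5 were not called, against 41.8% called over all genes it kept. Gata4, a transcription factor of the primitive endoderm, rose by 2.38 (edgeR adjusted p = 0.00133), from 0.208 ± 0.127 to 1.09 ± 0.409 FPKM (SD, n = 5), with no overlap. Col4a2 was lower in the same libraries. Lamb1 was lower in them except Mettl3-ASO replicate 1, which at 12.38 FPKM lay within the ASO-Control range of 6.22 to 12.95. Plau, the protease urokinase, had 391 counts over the ASO-Control and 3 over the Mettl3-ASO libraries. It passed the filter through its ASO-Control level, so its edgeR call (adjusted p = 0.000528) is a description only. DESeq2 gave no adjusted p, and the ASO-Control values of Plau ran from 0.12 to 3.98 FPKM.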
